A study of Rattus norvegicus with 6 samples.

Results

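Short predicted small RNA entries are the lines of the deposited table that carry no miRBase name and whose listed mature sequence is under 20 bases long. The rule took every such entry with at least 50 all-isoform counts summed over the 6 libraries and left out 3 entries by name. It gave 170 members among 1191 distinct entries, of which 492 are predicted and 699 carry miRBase names. The members had listed lengths of 17 bases (73 members), 18 bases (55) and 19 bases (42), and 93 were listed as 3p and 77 as 5p arms. Another 175 short predicted entries fell below the floor of 50 counts, and 48 predicted entries with at least 50 counts were 20 bases or longer. The rule used the summed count and the listed length, so neither is a result. Members are called by the ending of the authors' identifier, which is used as a name only, with no genome position taken from it.

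Small RNA was sequenced from 3 normal rat hearts (genotype WT, control) and from 3 hearts of the same genotype after ischemia-reperfusion (I-R). For I-R the left anterior descending coronary artery was tied for 0.5 h and flow was then restored for 0.5 h. The labels only number the hearts and do not say whether they were processed apart, so a p-value covers library-to-library spread, which may be technical. All-isoform counts summed to 6963312, 8259263 and 8429988 in normal libraries 1 to 3 and to 1376947, 2186243 and 2814802 in I-R libraries 1 to 3, so depth and group cannot be told apart by design. Heart muscle miRNAs (6 of 6 found) summed to 249172 to 442404 CPM (counts scaled to the same library total) in normal and 194820 to 301586 CPM in I-R libraries.

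A miRNA is cut from the stem of a hairpin precursor by Drosha and Dicer and loaded into an Argonaute protein, where bases 2 to 8, the seed, pair with target mRNAs. Mature miRNAs cluster around a length slightly above the limit that defines these entries. Entries without a miRBase name are commonly predicted by matching reads to genome sequence that could fold into a hairpin. In the heart, brief coronary occlusion followed by reflow injures muscle cells. The prediction method behind these entries is not stated in the sources used here.

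The sequences of 6 of the 12 members with the highest mean level show what the table counts, because the listed sequence and the most abundant sequenced tag usually differ. Listed sequences are written with U and sequenced tags with T, as deposited, 5′ to 3′. Capitals mark a base that differs between the listed sequence and the tag.
chr1_34468 listed: augugcuuggcugagga
chr1_34468 tag: tgtgcttggctgaggagct
chr10_2210 listed: cguucgUgcucuccccug
chr10_2210 tag: cgttcgCgctctcccctg
chr6_66532 listed: uauuaaugguuGguuugu
chr6_66532 tag: taatggttCgtttgt
chr13_13098 listed: cguggaAggugugaggca
chr13_13098 tag: cgtggaCggtgtgaggca
chr4_54023 listed: gcccagugcucGgaaugc
chr4_54023 tag: gcccagtgctcTgaatg
chr5_62247 listed: uucugggcuguagugUgc
chr5_62247 tag: agttctgggctgtagtgCgc
The 6 were picked to show such differences. Among all 12, the tag carried a substitution in 7 and differed at its ends alone in 5.

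Over all 170 members the most abundant tag was identical to the listed sequence in 7, differed at its ends alone in 77, held 1 substitution in 85 and more than 1 in 1 member. Among the 48 longer predicted entries it was identical in 16, differed at its ends alone in 7 and held 1 substitution in 25. In the 85 members with 1 substitution, it lay in the last 3 listed bases in 45, in bases 2 to 8 in 14, at base 1 in 9 and elsewhere in 17. The tag began at the listed first base in 74 members, upstream in 54 and downstream in 42. Tags were 15 to 25 bases long, 40 of them had 15 or 16 bases and 39 had 20 or more, and the libraries were size selected for inserts from 15 bases up. The listed sequence began with U, the base Argonaute proteins often favour at that place, in 31.8% of members, and the tag did so in 25.3%. The listed share was near that of all entries (34.4%) and of miRBase-named ones (36.6%). For the 48 longer predicted entries the listed and tag shares were 43.8% and 33.3%.

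Reads of the exact listed sequence made up 1.10% of the members' counts, against 32.2% for the 48 longer predicted entries and 21.6% for miRBase-named miRNAs. Within the longer predicted entries that share was 35.7% for the 10 close in sequence to a named miRNA and 9.61% for the other 38. The members' exact share was 0.578, 1.45 and 1.40% in normal libraries 1 to 3 and 1.06, 1.11 and 1.08% in I-R libraries 1 to 3, so the groups overlapped. In 57 of the 170 members no read of the exact listed sequence was counted in any library. The same held for 20 of the 48 longer predicted entries. It also held for 557 of all 1191 entries, which include 197 named ones with no count at all. The share of single members reached 58.7% in chr6_65588, a member with 63 counts, and the median member stood at 1.85%. By entry the gap to the longer predicted entries was small, since their median was 3.04%. The median of named entries with counts was 14.3%. The most abundant tag held 45.3, 43.7 and 46.7% of the members' counts in the normal libraries and 25.2, 27.7 and 27.5% in the I-R libraries, with no overlap between the groups. This pooled share depends on which members hold the counts. Over the 73 members of 17 bases it was 15.7, 19.1 and 19.2% against 15.99, 15.96 and 15.5%, so the groups overlapped. Over the members of 18 bases it was 56.2, 52.9 and 56.9% against 36.8, 38.9 and 38.5%, without overlap. Over the members of 19 bases it was 40.7, 34.6 and 40.1% against 20.7, 23.3 and 27.9%, also without overlap. In chr6_66532, of 18 bases, the tag held 63.1, 65.1 and 65.4% against 55.1, 63.7 and 55.7%, with overlap. This member held 18812 of the 27014 counts of the 18-base members in normal library 1 and 1383 of 47218 in I-R library 1. The part of such shifts between members in the pooled shares was not tested. In chr13_13098 the tag held 11.02, 14.6 and 10.8% of the counts in normal and 34.8, 31.3 and 33.3% in I-R libraries, the opposite direction. In chr1_34468 it held 11.8, 13.7 and 15.2% and 16.2, 15.4 and 15.1%, with overlap.

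**Figure D1:**
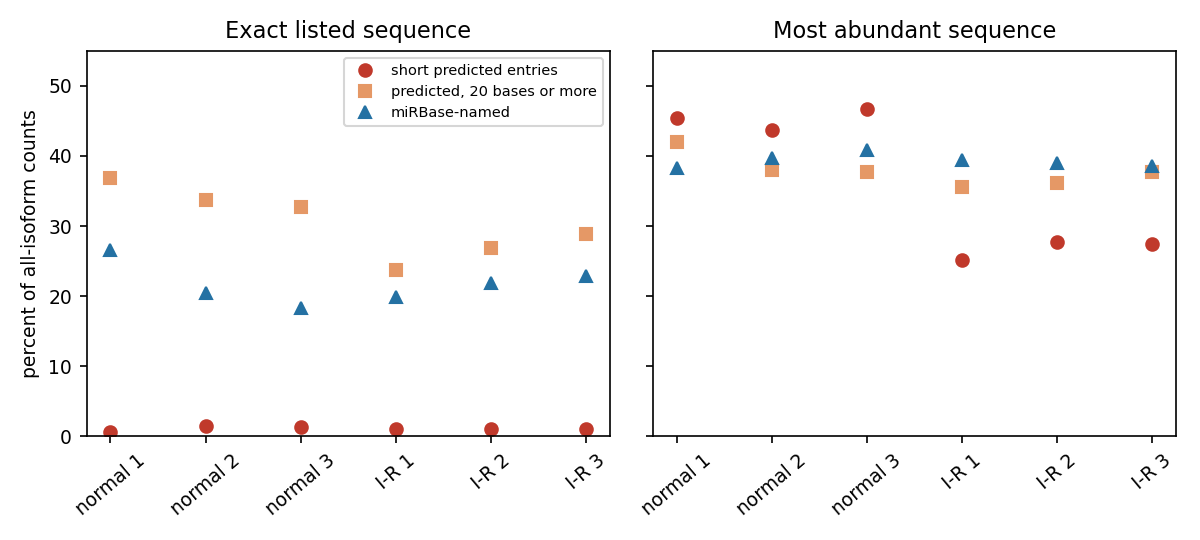
Percent of all-isoform counts (y axis) that is the exact listed sequence (left) or the most abundant sequence (right) in each of the 6 libraries (x axis), summed over each kind of entry. Short predicted entries lie between 0.578 and 1.45% on the left, below both other kinds in every library.

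The members as a group took a larger share of the I-R libraries. They held 0.569, 0.441 and 0.550% of all counts in normal libraries 1 to 3, and 7.92, 3.95 and 1.55% in I-R libraries 1 to 3. The lowest I-R library was above the highest normal one, and the I-R libraries spread far more widely. The means were 0.520 ± 0.0693% and 4.47 ± 3.21% (SD, n = 3 each), a ratio of 8.60, with no test because the members were chosen with results known. Without I-R library 1 the I-R mean was 2.75% and the ratio 5.29, and without chr1_34468, the largest member, the ratio was 6.44. Taking 1 member for each distinct listed sequence gave 0.568, 0.440 and 0.549% against 7.89, 3.93 and 1.55%. In whole tissue, a change in the share of cells that hold an RNA and a change in its amount per cell cannot be told apart.

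The order of the I-R libraries was shared by most members. I-R library 1 had the highest I-R level in 142 of 170 members and I-R library 3 the lowest in 143. The order is the reverse of their depth, with the members' share highest in the shallowest library. These counts were not made over all entries, and the order was not particular to the members. The 38 longer predicted entries not close to a named miRNA held 0.332, 0.232 and 0.174% of counts in I-R libraries 1 to 3. The 10 close to one held 0.465, 0.467 and 0.448%, without that order. The liver miRNA miR-122-5p had the same order in I-R libraries, at 866, 510 and 79.1 CPM, after 82.6, 38.5 and 30.4 CPM in normal libraries. The 3 entries left out by name took 0.256, 0.159 and 0.148% of counts in normal and 4.85, 3.18 and 3.26% in I-R libraries, with library 1 again the highest. Leukocyte miRNAs (4 of 4 found) summed to 478 to 573 CPM in normal and 409 to 509 CPM in I-R libraries. Red cell miRNAs (3 of 3 found) summed to 2524 to 2935 and 1459 to 1889 CPM. Most of that sum is miR-486, and the red cell miRNA miR-451-5p went the other way, at 159, 49.7 and 66.7 CPM in normal and 186, 382 and 72.2 CPM in I-R libraries, with overlap (log2 fold change 1.22, edgeR adjusted p = 0.195). The part of depth and of these RNAs in the members' levels was not tested. With every library thinned to 1376947 counts, 95 members passed the filter, and 81 of them were higher and 4 lower, against 27% and 8.08% of all 359 entries in that fit.

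**Figure D2:**
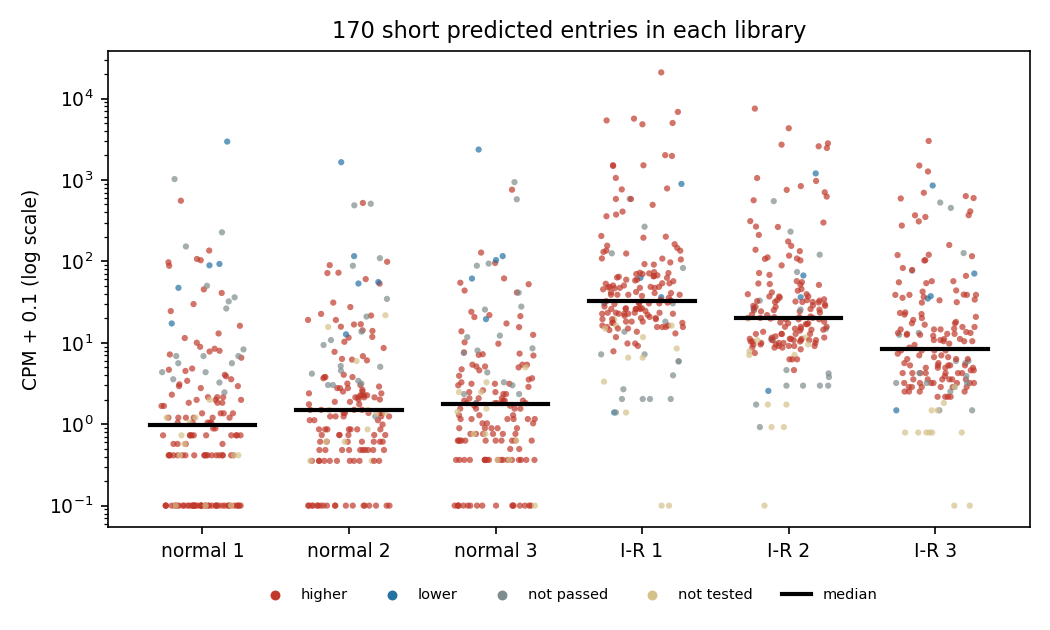
Level of each of the 170 members (points) in each library, as CPM plus 0.1 on a log axis, coloured by the result of the edgeR test, with the median of the members as a bar. Median levels were 0.867, 1.40 and 1.65 CPM in normal libraries 1 to 3 and 32.7, 20.1 and 8.29 CPM in I-R libraries 1 to 3.

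Each entry was compared between the groups with edgeR's quasi-likelihood test on the whole table, with Benjamini-Hochberg adjustment over all 524 entries tested and a threshold of 0.05. Of the 170 members, 158 passed the filter on low counts, and of these 135 were higher after I-R, 5 were lower and 18 did not pass. Over all 524 entries tested, 33.4% were higher (175 entries, the 135 members among them) and 9.35% lower. The filter matters here, because 79 tested members reached its level of about 2.05 CPM in no normal library and so had entered through the I-R libraries. Of the 46 tested members above that level in all 3 normal libraries, 26 were higher and 5 lower. The shares over all 524 entries are not a like background for these 46, and the share over all entries above that level was not computed. Without any filter 138 members were higher and 7 lower, against 27.5% and 5.69% of 967 entries. By level alone, all 3 I-R libraries lay above all 3 normal ones in 138 members and below them in 8, against 21.7% and 14.3% of all entries.

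The median log2 fold change over all 170 members, from the fit with no filter, was 4.51 with quartiles of 3.15 and 5.31. It was -0.59 over miRBase-named entries with counts and -0.19 over the 48 longer predicted entries. The longer predicted entries were mixed, with quartiles of -0.69 and 4.33, and of the 42 tested 19 were higher and 2 lower. The 38 of them not close in sequence to a named miRNA had a median of 1.03. Short predicted entries under 50 counts had a median of 4.37, so a high median was not particular to the members. Scaling moved the median of all tested entries from -0.17 to between -0.67 (upper-quartile factors) and 0.17 (factors from named miRNAs), and the median of tested members then ran from 4.11 to 5.13. Since some members share a sequence, the calls were also counted over the 159 distinct listed sequences: 126 were higher, 5 lower, 17 did not pass and 11 were not tested. Among the 135 higher members, 109 had a log2 fold change above 4 and 3 one under 2. Those 3, named after their values were seen, were chr16_20282 (1.09), chr5_60452 (1.60) and chr1_37814 (1.79).

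**Figure D3:**
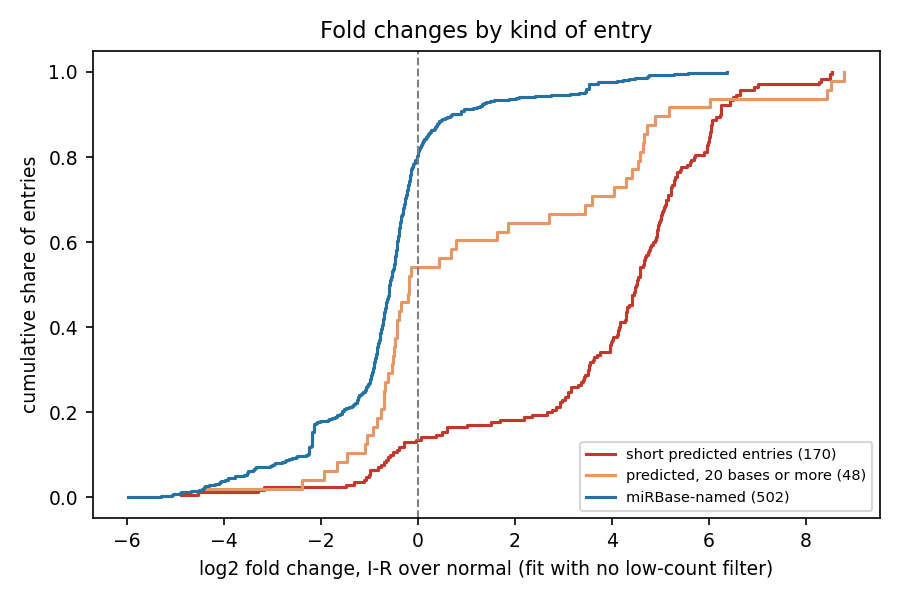
Cumulative share of entries (y axis) by log2 fold change, I-R over normal, from the fit with no low-count filter (x axis), for 170 short predicted entries, 48 longer predicted entries and the 502 miRBase-named entries with a count. The medians were 4.51, -0.19 and -0.59, and the upper quartile of the longer predicted entries was 4.33.

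Counts were concentrated in few members. The largest held 16.9% of the members' 361377 counts and the largest 10 held 74.8%, while the median member had 184.5 counts and 90 had under 200. The I-R libraries held 66.1% of the members' counts and 21.2% of all counts. Of the 12 members with the highest mean CPM, 10 were higher after I-R, 1 was lower and 1 did not pass. The ranking took in the I-R libraries, so it favours members that are high after I-R. The share over all entries ranked in this way was not computed.

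chr1_34468, the highest of all by mean level, stood at 97.4, 71.8 and 52.3 CPM in normal libraries 1 to 3 and at 20956, 7534 and 3015 CPM in I-R libraries 1 to 3. Every I-R library lay far above every normal one, and I-R library 1 alone was several times I-R library 3. The log2 fold change was 7.15 ± 0.85 (SE; edgeR quasi-likelihood, Benjamini-Hochberg adjusted p = 0.00217). Its exact listed sequence made up 0.0623% of its counts and its most abundant tag 15.7%.

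chr10_2210 was already abundant in normal hearts, at 556, 522 and 760 CPM, and reached 6857, 4322 and 1504 CPM after I-R. The groups did not overlap, and the log2 fold change of 2.79 ± 0.53 (SE) was smaller than that of most higher members (edgeR adjusted p = 0.00610). Its tag, which carries 63.0% of its counts, matched the listed sequence apart from 1 base. chr13_13098 went from 136, 89.8 and 128 CPM to 5387, 2592 and 1272 CPM (log2 fold change 4.71 ± 0.57 (SE), edgeR adjusted p = 0.00217). Its groups did not overlap either, and the normal libraries stayed close together.

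chr4_54023 rose from 88.2, 60.5 and 43.7 CPM to 5668, 2717 and 593 CPM, a log2 fold change of 5.54 ± 0.87 (SE; edgeR adjusted p = 0.00382). chr1_31543 stood at 107, 31.1 and 20.6 CPM in normal libraries and 5011, 2817 and 633 CPM in I-R libraries, with a log2 fold change of 5.74 ± 1.03 (SE; edgeR adjusted p = 0.00523). In both members normal library 1 was the highest of its group, and both had their lowest I-R level in library 3. chr5_62247 was at 29.8, 27.4 and 21.1 CPM in normal libraries and 1520, 706 and 696 CPM in I-R libraries. I-R libraries 2 and 3 were nearly equal in this member, and its log2 fold change of 5.22 ± 0.41 (SE) had the smallest error of the 12 relative to its size (edgeR adjusted p = 0.000712). The remaining higher members of the 12, chr6_65993, chr12_8422, chr16_18904 and chr2_42930, had log2 fold changes of 5.06, 5.82, 6.26 and 5.08.

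The highest fitted fold changes belonged to members listed at 0 in all 3 normal libraries. There were 5 of them: chr1_30587, chr2_44040, chr20_40158, chr6_67210 and chrX_82551. The table lists no count below 2, so a blank can hide a single read. Against the level of 3 counts over the normal group, 0.127 CPM, they were at least 83.8-fold, 82.0-fold, 69.7-fold, 68.4-fold and 82.2-fold higher. Their I-R levels were modest: chr20_40158 stood at 15.5, 6.16 and 4.84 CPM and chr6_67210 at 7.76, 12.7 and 5.53 CPM. With these 5 at their bounds the median over all members stayed at 4.51. In all, 55 members, these 5 included, were at 0 in at least 1 normal library.

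**Figure D4:**
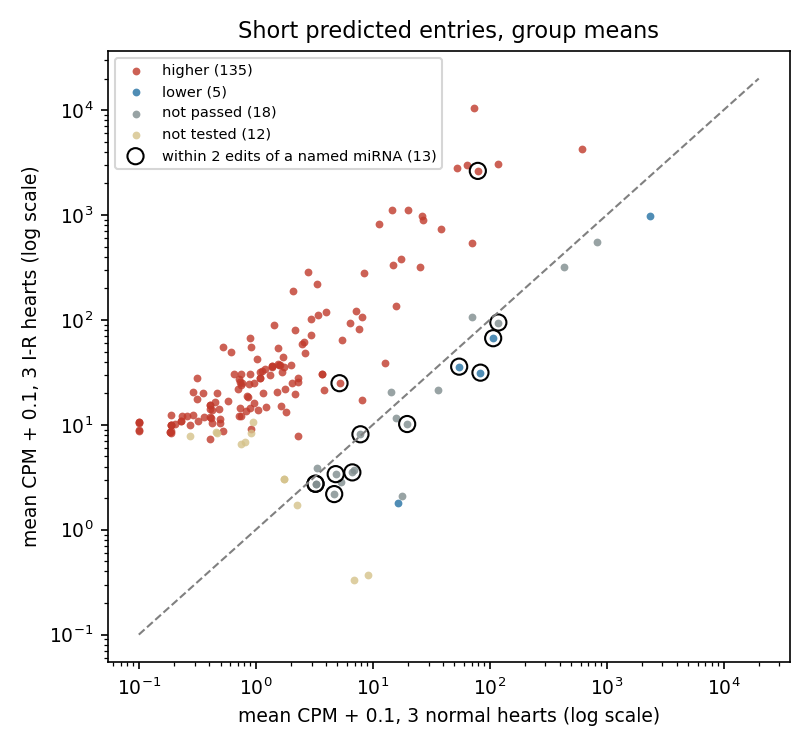
Mean CPM plus 0.1 over the 3 I-R hearts (y axis) against that over the 3 normal hearts (x axis), both on log axes, for the 170 members, coloured by the edgeR result. The dashed line marks equal levels, circles mark the 13 members within 2 edits of a named miRNA, and the 135 higher members lie above the line.

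The 5 members that fell were led in level by chr6_66532, the third highest member by mean CPM. It stood at 2964, 1653 and 2364 CPM in normal libraries and 895, 1204 and 854 CPM in I-R libraries. All I-R libraries were below all normal ones, and the log2 fold change was -1.24 ± 0.25 (SE; edgeR adjusted p = 0.00761). Its 15-base tag carries 63.8% of its counts, and the exact listed sequence 0.00354%.

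chr4_57750 had the largest fall, from 17.2, 12.6 and 19.4 CPM to 1.29, 2.47 and 1.38 CPM. The log2 fold change was -3.22 ± 0.47 (SE; edgeR adjusted p = 0.00304), on 367 counts in all, with 2, 6 and 4 of them in the I-R libraries. chr10_3181 fell from 93.0, 53.4 and 104 CPM to 30.4, 26.3 and 37.3 CPM, without overlap (log2 fold change -1.41 ± 0.30 (SE), edgeR adjusted p = 0.00945). The other two, chr6_66558 and chrX_81547, fell by 0.68 and 0.62 on the log2 scale, with edgeR adjusted p of 0.0208 and 0.0439. Their calls depended on the processing: the first did not pass in 8 and the second in 13 of 17 alternatives.

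Of the 18 members that were tested and did not pass, log2 fold changes ran from -3.11 to 0.60 and 14 were below 0. chr2_45744, at 1025, 511 and 941 CPM in normal and 586, 550 and 528 CPM in I-R libraries, was the most abundant of them (log2 fold change -0.57 ± 0.27 (SE), edgeR adjusted p = 0.134). Its groups overlapped through normal library 2. It passed as lower in 4 of 17 alternatives, with edgeR adjusted p of 0.00954 (upper-quartile factors), 0.0479 (no filter), 0.0443 (most abundant sequence counts) and 0.0164 (without normal library 2). The lowest value, -3.11 ± 1.55 (SE), belonged to chr7_68398 and rested on normal library 1, with 318 counts against 9 and 13 in the other normal libraries (edgeR adjusted p = 0.158). Among the 12 members that were not tested, chr2_42672 and chr16_20606 were seen mainly in normal library 2, with 170 of 213 and 122 of 160 counts, and were named after their values were seen.

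Some members were close in sequence to a miRBase-named miRNA of the same table. A search chosen after the values were seen took every member whose listed sequence or tag lay within 2 edits (substitutions, insertions or deletions) of a stretch of a named mature sequence. It found 13 members, 3 with 0 edits, 5 with 1 and 5 with 2, around 10 named miRNAs, of which 9 stand in RefSeq (GRCr8) with the same sequence. Of the 13, 2 were higher, 3 lower and 8 did not pass, while the other 157 members held 133 higher and 2 lower calls. Of the 19 tested members with a log2 fold change below 0, 10 were among the 13. These pairs show how near the match is, with bases that differ or were inserted in capitals.
chr4_54706: ugagguaguagauugu
let-7f-5p: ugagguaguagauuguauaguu
chr10_3096: uggaauguaagaaguaugu
miR-1b: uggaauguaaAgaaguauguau
chr10_3181: cuuucagucggauguuuaU
miR-30e-3p: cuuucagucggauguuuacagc
chr6_66558: acuggacuuggagucagaGggU
chrX_81547: acuggGcuuggagucagaaggU
miR-378a-3p: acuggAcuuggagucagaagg
chr16_20725: cauuauuacuuuugguacA
miR-126a-5p: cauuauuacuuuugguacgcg
The first equals the first 16 bases of let-7f-5p, the second lacks 1 base of miR-1b, and the rest carry changed or added bases, most of them near the 3′ end. In the printed miR-378a-3p the capital marks the base at which chrX_81547 differs.

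Of the 13 members, 11 were counted far less than the named miRNA beside them; the other 2 follow further on. chr10_3096 had 0.0612, 0.0515 and 0.0524% of the counts of miR-1b, a muscle miRNA, in normal libraries and 0.0555, 0.0393 and 0.0515% in I-R libraries. The groups overlapped, and its log2 fold change was -0.33 beside -0.14 for miR-1b. chr10_3181 had 2.34 to 3.27% of the counts of miR-30e-3p in normal and 1.80 to 2.06% in I-R libraries, without overlap. The named miRNA fell by 0.77 on the log2 scale (edgeR adjusted p = 0.0109) where the member fell by 1.41; the difference between them was not tested. chr6_66558 had at most 0.538% of the counts of miR-378a-3p in normal and at most 0.457% in I-R libraries, and chrX_81547 had 0.252 to 0.285% and 0.217 to 0.247%.

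chr4_54706, the let-7f-5p tag, stood at 26.3, 20.9 and 11.6 CPM in normal and 7.12, 10.7 and 12.4 CPM in I-R libraries. The groups overlapped, and the log2 fold change was -0.94 ± 0.44 (SE; edgeR adjusted p = 0.131). chr16_20725, beside the endothelial miR-126a-5p, had a log2 fold change of 0.05 ± 0.44 (SE; edgeR adjusted p = 0.925), and its sign turned under 4 alternatives. Apart from the 2 higher members, the log2 fold changes of the 13 ran from -1.41 to 0.05.

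The 2 exceptions were chr1_30159 and chr6_65993. The listed sequence of chr1_30159 is contained in miR-3473, as these lines show.
chr1_30159: gggcuggagagauggcu
miR-3473: ucuagggcuggagagauggcua
chr1_30159 stood at 3.78, 6.24 and 5.29 CPM in normal and 30.4, 20.96 and 23.1 CPM in I-R libraries, without overlap, with a log2 fold change of 2.27 ± 0.38 (SE; edgeR adjusted p = 0.00437). miR-3473 had 0.945, 4.59 and 6.34 CPM and 3.88, 4.11 and 5.18 CPM, so its groups overlapped. Reads of the exact listed sequence made up 3.24% of the counts of chr1_30159. Its most abundant tag held 16.9% and lay 3 edits from the nearest named miRNA, past the limit of 2. The listed sequence of chr1_30159 also occurred, on either strand, in 82 of 33469 RefSeq promoter windows (GRCr8) of 300 bases, or 0.245%, so it recurs in these windows. chr6_65993 met the limit through a 15-base tag with 2 edits to let-7d-3p, a let-7 passenger strand, which is a loose match. It was at 103, 72.5 and 61.7 CPM in normal and 4830, 2473 and 600 CPM in I-R libraries, while let-7d-3p had a log2 fold change of -0.00 ± 0.17 (SE). The member's counts were 22.3 to 35.5% of those of let-7d-3p in normal and 210 to 1778% in I-R libraries.

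**Figure D5:**
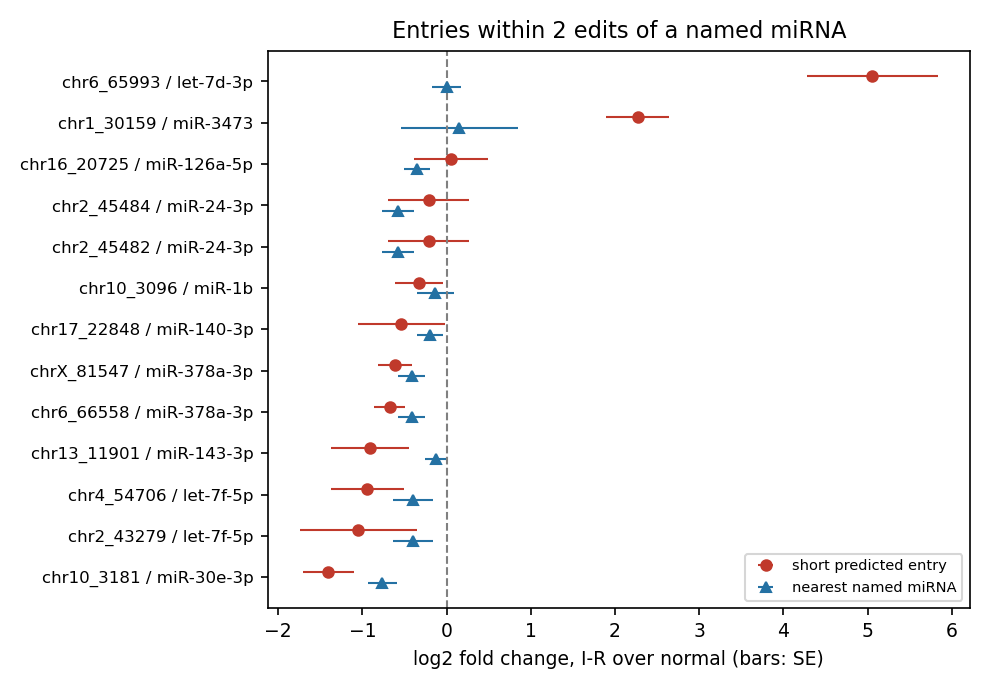
Log2 fold change, I-R over normal, with its SE as a bar (x axis), for each of the 13 members within 2 edits of a named miRNA (circles) and for that miRNA (triangles). The upper 2 members, chr6_65993 at 5.06 and chr1_30159 at 2.27, lie apart from their miRNAs, and the other 11 lie between -1.41 and 0.05.

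Bases 2 to 8 of the listed sequence were shared with a named miRNA in 18 members, 8 of which are among the 13 and 8 of which were higher. A shared seed is given as a description of the sequences only.

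Members also overlapped each other. Among the 170, 11 pairs had the same listed sequence, 7 of them with identical counts in every library, and 21 pairs in all shared a run of at least 12 bases in the listed sequence or the tag. Such members are not separate observations, because the same read may have been counted for both. Several of the abundant members lined up end to end, as the next lines show. Capitals mark the bases at the end of the first sequence that recur at the start of the second, written with U throughout.
chr16_18904 listed: uuuggugUAUGUGCUUG
chr18_25293 tag: UAUGUGCUUGgcugagga
chr18_25293 tag: uaUGUGCUUGGCUGAGGA
chr1_34468 tag: UGUGCUUGGCUGAGGAgcu
chr12_8422 tag: aAUAGGGAACGUGAGCU
chr1_31543 listed: AUAGGGAACGUGAGCUgg
chr2_42930 listed: ucuGCCCAGUGCUCUGA
chr4_54023 tag: GCCCAGUGCUCUGAaug
chr1_35198 tag: aggcccagccCGUGGACGGU
chr13_13098 tag: CGUGGACGGUgugaggca
The overlaps ran from 10 bases (chr16_18904 with chr18_25293, and chr1_35198 with chr13_13098) to 16 bases (chr18_25293 with chr1_34468, and chr12_8422 with chr1_31543).

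The overlapping members chr16_18904, chr18_25293 and chr1_34468 had levels far apart but moved the same way, as most members did (135 of 158 tested were higher). chr18_25293 had 330 counts in all, at 1.26, 0 and 0 CPM in normal and 105, 41.5 and 20.03 CPM in I-R libraries, against 61040 counts for chr1_34468. chr16_18904, at the other end, stood at 24.4, 11.7 and 7.14 CPM and 1974, 973 and 369 CPM. All 3 were higher after I-R, with log2 fold changes of 7.07 ± 1.31, 7.15 ± 0.85 and 6.26 ± 0.82 (SE; edgeR adjusted p = 0.00568, 0.00217 and 0.00240).

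chr12_8422 and chr1_31543 had the same most abundant tag, and the ratio of their counts stayed within 0.340 to 0.435 over all 6 libraries. The ratio of chr2_42930 to chr4_54023 ran from 0.284 to 0.513 in normal and from 0.267 to 0.592 in I-R libraries. chr1_35198 was at 4.41, 2.17 and 1.45 CPM in normal and 495, 211 and 159 CPM in I-R libraries, with a log2 fold change of 6.75 ± 0.67 (SE; edgeR adjusted p = 0.00125) beside 4.71 for chr13_13098. Lines of this kind were also found for chr6_64569 with chr13_10923 and chr5_61973 with chr9_78297, with overlaps of 14 bases each and log2 fold changes of 2.89, 2.47, 4.64 and 4.29. The calls of chr6_64569 and chr13_10923 were each lost in 7 of 15 alternatives, limma-voom and each normal library left out among them. Overlapping sequence did not always go with a like change: chr14_13983 and chr16_20521 shared 12 bases and had log2 fold changes of -0.93 (edgeR adjusted p = 0.201) and 6.09 (edgeR adjusted p = 0.00575). The tags of chr15_18446 and chr9_78174 also shared 12 bases, with log2 fold changes of 0.60 (edgeR adjusted p = 0.258) and 4.23 (edgeR adjusted p = 0.00355).

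Every length and arm had a median well above 0. Median log2 fold changes from the fit with no filter were 4.77 for 17, 4.47 for 18 and 4.14 for 19 bases, and 3.52 for the 14 predicted entries of 20 bases just past the length limit. The medians were 4.65 for 5p and 4.29 for 3p members. By length of the tag they were 3.96 under 17 bases (40 members), 4.66 at 17 to 19 bases (91) and 4.58 at 20 or more (39). These medians are given without a test.

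At the floor of 50 counts, the members just inside were chr11_5980 and chr11_6997, which have the same counts (7, 11 and 18 in normal and 10, 4 and 2 in I-R libraries), chr19_27901 (0, 4 and 11 against 18, 17 and 2) and chr1_31294 (0, 2 and 0 against 23, 15 and 12), each with 52 counts. Just outside were chr6_64904 with 48 counts (15, 10 and 3 against 6, 5 and 9), chr14_13126 with 43 (0, 0 and 8 against 22, 9 and 4), and chr1_38261 and chr2_43008 with 39 each, none of them in normal libraries. Raw counts here are not scaled to depth: in the fit with no filter chr11_5980 had a log2 fold change of 0.61, chr6_64904 one of 1.07, and none of the 8 was below 0.

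With counts of the exact listed sequence alone, 17 members could be tested, of which 16 were higher and the other did not pass, against 10.9% of entries higher in that fit. With counts of the most abundant sequence, 67 of 84 tested members were higher and 4 lower, against 23% and 7.49% of the 387 entries in that fit. The authors' deposited table lists 106 members with a fold, I-R over normal, of group means to which 10 had been added. Of these folds from the authors' deposited table, 97 were above 1 and 8 below, with a range of 0.493 to 151 and a median of 3.03. No member had a false discovery rate under 0.05 in the authors' deposited table, where the lowest was 0.0606 for chr1_30159. At an unadjusted p under 0.05, the authors' deposited table holds 38 members with a fold above 1 and 2 below, and it does not name its test. The same counts over all entries of the authors' comparison were not made, so these counts of members stand without a background.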

How the data were processed

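Small RNA libraries of 6 rat hearts were analysed. Per the labels' protocols, RNA was extracted with Trizol, ligated to adaptors, amplified and size selected. The submitters' processing notes name Novoalign 2.07.11 without its role. The build, the release of miRBase and the prediction method are not stated in the sources used here. The deposited values are raw tag counts, given per library for all isoforms, for the most abundant sequence and for the exact listed one, per the file headers. Blank cells were read as 0, and the smallest count listed was 2. A second table deposited by the authors holds a fold (ratio) of group means, the means themselves as a score, and p-values; 18 further columns of it were not used.

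All-isoform counts were used, with the highest row for each of 1191 identifiers of 1257 rows. The whole table was fitted with edgeR 4.0.16 under R 4.3.3 (TMM factors, filterByExpr at a minimum count of 10, robust quasi-likelihood test, Benjamini-Hochberg adjustment at 0.05), after a test on simulated data. CPM use library sizes times TMM factors. SE are on the log2 scale. Alternatives used DESeq2 1.42.0, limma 3.58.1 and other settings given in the closing section. Total counts per library ran from 1376947 to 8429988. Wilson 95% intervals of the members' share of counts ran from 0.436 to 0.445% in normal library 2 and from 7.87 to 7.96% in I-R library 1. They cover counting error only, since PCR reads are not independent molecules.

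The members and lists were chosen with earlier results of these data known. Members named are the 12 with the highest mean CPM, the 4 tested with the lowest and the 4 with the highest log2 fold change, those that share at least 12 bases with another, those that fell and those nearest the limits of the rule; others were named after their values were seen. Sequence comparison used edit distance. Names of the other markers checked were for endothelium (1 of 1 found, 54617 to 116148 CPM over the libraries), smooth muscle (2 of 2 found, 117955 to 146993 CPM) and liver (miR-122-5p).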

Additional observations from a re-analysis of the deposited data

How the results depend on the processing

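The 135 higher calls ranged from 126 to 142 when 1 library was left out, and came to 134 with RLE, 133 with upper-quartile, 135 with total-count and 135 with named-miRNA factors, 138 without a filter, 135 with DESeq2 and 127 with limma-voom. Fewer members could be tested with exact-sequence counts (16 higher, 0 lower), most abundant sequence counts (67 higher) and thinned libraries (81 higher). The share of all entries called was given above for these fits, the main fit and the fit without a filter. For the other alternatives it was not computed, so their counts of members stand without a background. The 5 lower calls became 8 with upper-quartile factors, 3 with total counts, 3 with named-miRNA factors, 2 for members under 19 bases, and 3 to 6 when 1 library was left out. The cause was not tested. The median log2 fold change over all members, tested or not, stayed between 3.51 and 5.13 under all alternatives; over tested members alone, without the other floors and length limit, it ran from 4.11 to 5.15.

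The mean share of counts was 0.0285% in normal and 0.258% in I-R libraries with exact-sequence counts, and 0.596% and 3.12% with most abundant sequence counts, so the ratio of I-R to normal went from 8.60 to 9.04 and 5.24. The exact-sequence share averaged over members was 4.10% and 4.84%, and over summed counts 1.14% and 1.08%. The log2 fold change of chr2_45482 and chr2_45484, which have identical counts, went from -0.21 to 0.015 with total counts, 0.096 with named-miRNA factors, and between -0.28 and 0.012 with 1 library left out, the latter without I-R replicate 1. That of chr16_20725 went from 0.05 to -0.46 with upper-quartile factors, -0.030 without a filter, -0.23 without normal replicate 1 and -0.27 without I-R replicate 2, and to 0.37 without I-R replicate 3; none of these passed the edgeR test.

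Replicate numbers did not pair the libraries (correlations of same-numbered libraries -0.24, 0.01 and -0.16); with the replicate block 103 members were higher and 4 lower. In members near 0 in normal libraries a few reads set the level, although the normal libraries were the deeper ones.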
